A study of Mus musculus with 2 samples.

Results

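Mir375 is 1 of the 2202 miRNA genes in the deposited tables and 1 of the 377 that had 10 reads or more in each library. It was chosen by its gene name in the annotation (identifier ENSMUSG00000065616.3), not by its level. The data come from adrenal glands taken from B6CASTF1/J female mice at 4 days of age, a strain that is the first-generation hybrid of C57BL/6J and CAST/EiJ. The series holds 2 libraries of this 1 group, called replicate 2 and replicate 1 here. The labels name them as different females but carry 1 shared donor identifier, so that the spread between the libraries may be partly technical. There is no treatment, genotype or time to compare, and the values below describe a level and its difference between these libraries.

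A miRNA is cut from a hairpin-shaped precursor, and 1 strand of the resulting short duplex guides a silencing complex to messenger RNAs that match its seed, the bases 2 to 8. MiR-375 was first described in pancreatic islets, where it restrains insulin secretion and is needed for a normal mass of endocrine cells. It is also known from the pituitary and other neuroendocrine cells. In rat adrenal medulla it has been studied as a regulator of catecholamine synthesis. The adrenal gland holds such cells in its medulla, enclosed by a steroid-producing cortex. In whole tissue, more cells of a type and more of the RNA per cell cannot be told apart, and the data do not show which cells held the miRNA.

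The hairpin lies at chr1:74900658-74900721 on the minus strand (mm10, also called GRCm38), and no other gene of the GENCODE M21 annotation overlaps it on either strand. Cfap65 is the nearest gene, 1350 bases upstream of the hairpin on the same strand, and Cryba2, a lens crystallin gene, lies 7515 bases away on the other side. The sequences below, from RefSeq's GRCm38.p6 table, show the precursor whose reads were counted and the seeds of miR-375-5p, miR-7b-5p and miR-137-3p. That source does not list miR-375-3p, from the other arm of the hairpin, so its seed is not marked. In the hairpin the capitals mark the arm that gives miR-375-5p. In the mature sequences they mark the seed.
Mir375 hairpin: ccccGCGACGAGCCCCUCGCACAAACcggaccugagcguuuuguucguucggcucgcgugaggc
mmu-miR-375-5p: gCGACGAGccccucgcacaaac
mmu-miR-7b-5p: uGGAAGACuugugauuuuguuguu
mmu-miR-137-3p: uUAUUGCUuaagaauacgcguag

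The hairpin of 64 bases has 10 CpG dinucleotides and 67.2% G or C. Among the 1005 mouse hairpins of the same table the median is 1 CpG and 51.7% G or C, and 23 hairpins (2.29%) have at least 10 CpG. RNAfold gave it 21 base pairs and a free energy of -26.8 kcal/mol, with 16 of the 22 bases of the 5′ arm paired. No other gene in the table gives a mature miRNA with the seed of miR-375-5p or with that of miR-137-3p, whereas that of miR-7b-5p is shared by miR-7a-5p, which comes from 2 other genes. The tables count reads per hairpin, so reads of miR-375-5p and of the other arm, miR-375-3p, were summed. The counts do not show which arm gave the reads.

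Reads could be placed on this gene with little doubt. The tables leave out reads with more than 1 place in the genome, which lowers the counts of miRNAs with identical copies. The longest run of bases that the Mir375 hairpin shares with any other of the 1005 RefSeq hairpins is 10. With the other annotated miRNA genes it shares no run of 18 bases, the length used to mark a gene as uncertain. That mark is carried by 1135 of the 2202 genes. The opposite strand held 0 reads in replicate 2 and 1 read in replicate 1. A difference of the CAST/EiJ allele from the reference could lower the count in both libraries alike, and this was not tested.

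By reads with 1 place in the genome, Mir375 was among the most abundant miRNA genes of the neonatal adrenal gland. Reads at several places, 27.8% of replicate 2 and 25.9% of replicate 1, were left out. Its share and rank among all miRNAs may therefore be lower than given here. It had 184879 reads in replicate 2 and 180462 reads in replicate 1, out of 4506482 reads assigned to miRNA genes in replicate 2 and 4960537 in replicate 1. Its share of the miRNA reads was 4.10% in replicate 2 (4.08 to 4.12, 95% Wilson interval) against 3.64% in replicate 1 (3.62 to 3.65). On average it took 38702 CPM ± 3285 (SD, n = 2), where CPM is reads scaled to a common total of miRNA reads. That is 258 times the median of 150 CPM over the 377 detected genes, and 372 of these had a lower mean. Of the 24 detected genes on chromosome 1, it alone gave 47.9% of that chromosome's miRNA reads in replicate 2 and 49.2% in replicate 1. The molecules read are all short, so levels are compared between genes without scaling by length. How evenly the library preparation captured different miRNAs was not tested, so comparisons between genes are comparisons of reads.

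Its place in the order of levels was 6th in replicate 2, 5th in replicate 1 and 5th by mean CPM. Mir10a, which lies in a Hox cluster, ranked just above it with 46314 CPM in replicate 2 against 46382 CPM in replicate 1, and both values exceed the higher value of Mir375. Mir23b, a miRNA with a close paralog in Mir23a, ranked just below by mean. It had 44151 CPM in replicate 2 against 32842 CPM in replicate 1, so it lay above Mir375 in the first of these and below it in the other. The means of Mir375 and Mir23b therefore do not differ beyond the spread between libraries. The Mir23b hairpin also shares a run with another, and its count holds uniquely mapped reads alone. Mir322, an X-linked miRNA, followed with 36935 CPM in replicate 2 against 29731 CPM in replicate 1, below Mir375 within each library although the ranges overlap. The other genes next in order were Mir143, Mir23a and Mir10b, with means of 28549 to 30490 CPM. Above Mir10a stood Mir126a, Mirlet7g and Mirlet7i, with means of 65859 to 105771 CPM. The hairpins of Mir23a, Mirlet7g and Mirlet7i also share a run with another, so the same limit holds for their counts as for Mir23b.

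**Figure D1:**
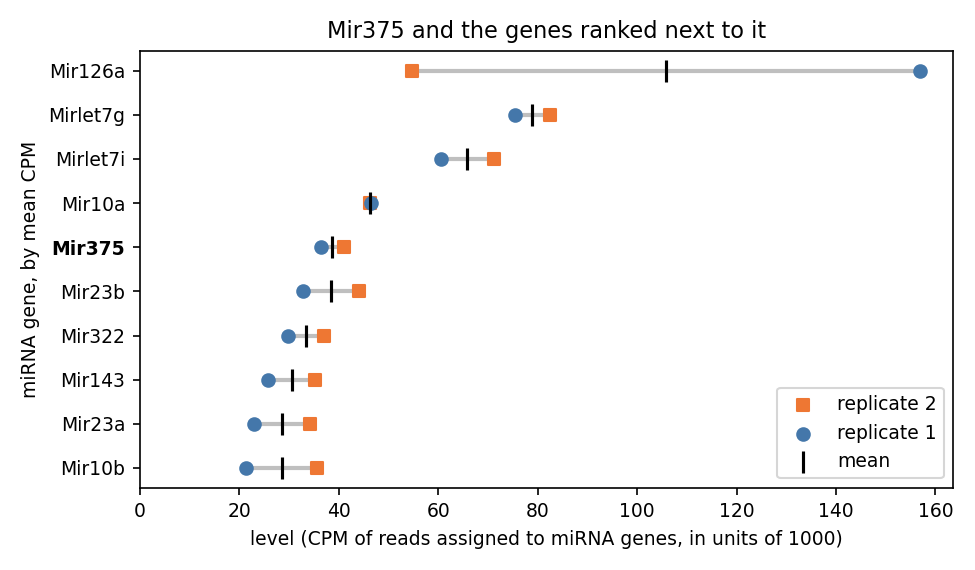
Level of Mir375 and of the genes ranked next to it, in CPM (axis in units of 1000), with 1 square for replicate 2, 1 circle for replicate 1 and a bar for their mean. The points of Mir375 (41025 and 36380 CPM) lie below those of Mir10a and overlap in range with those of Mir23b and Mir322.

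The level of Mir375 was similar in both libraries, and how far it differed rested on the scaling. By TMM-scaled reads (a scaling by a trimmed mean of gene ratios) it was 1.23-fold higher in replicate 2, a log2 ratio of 0.30 (95% exact interval 0.30 to 0.31). It was called by the exact two-sided binomial test over all 377 genes with Benjamini-Hochberg adjustment. That test takes counting error as the only error and called 68.2% of the 377 genes in either direction, 35.5% as higher in replicate 2 and 32.6% as higher in replicate 1, so most genes carry such a call. Against the spread of the pair itself, edgeR's exact test at a common coefficient of variation of 0.433 gave Mir375 p = 0.736 (adjusted p = 1.00). That test called 1.86% of the genes.

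The ratio of 0.30 shrank to 0.17 under scaling by total miRNA reads, to 0.09 under scaling by all reads of the library and to 0.01 under miRNA reads without Mir126a (interval -0.00092 to 0.018, adjusted p = 0.105 by the binomial test). The last setting was added after seeing the data. Mir126a, an endothelial miRNA, took 5.47% of the miRNA reads in replicate 2 and 15.7% in replicate 1. With it removed from the total, Mir375 held 4.34% in replicate 2 and 4.31% in replicate 1. Upper-quartile scaling gave the highest ratio, 0.52, and DESeq2 size factors gave 0.25. All of these are shifts of the same size for every gene, and under each of the 6 scalings the ratio of Mir375 lay 0.26 above the median over the 377 genes, with 120 genes higher and 256 lower.

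**Figure D2:**
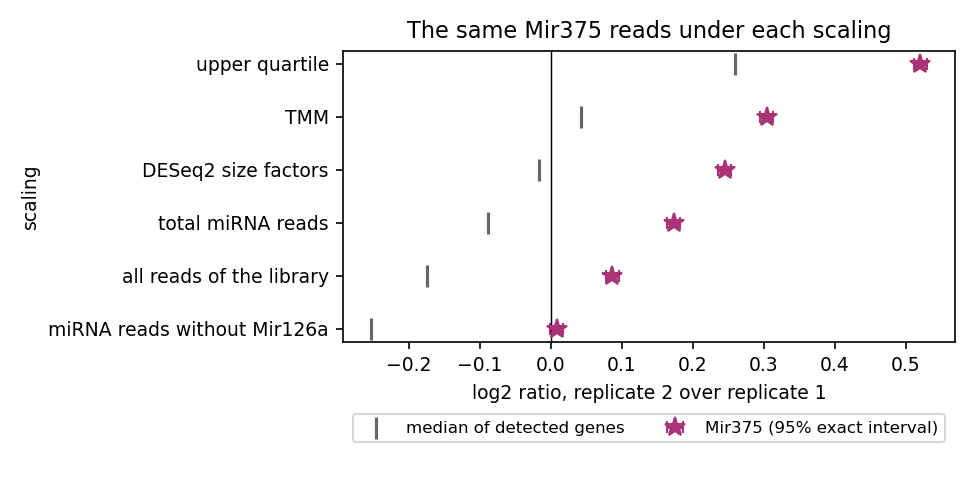
Log2 ratio of Mir375, replicate 2 over replicate 1, under 6 scalings, with 95% exact intervals (counting error alone) and the median over the 377 detected genes as a bar. The ratio runs from 0.01 to 0.52, while its distance from the median stays at 0.26.

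Abundant genes as a whole leaned towards replicate 2. Among the 50 detected genes of highest mean CPM the median log2 ratio was 0.37 by TMM, 28 genes had a higher ratio than Mir375, and 15 had a ratio nearer to 0. Their ratios ran from -2.28 to 2.93. Within these 50, the genes whose ratio was most like that of Mir375, by the absolute difference of log2 ratios over the 2 libraries, were Mirlet7b (0.34), Mir351 (0.27), Mir98 (0.26), Mirlet7g (0.26) and Mir99a (0.36). Mir375 lay within 0.054 of each. With Mir126a left out of the total, these 5 ratios ran from -0.04 to 0.06, beside 0.01 for Mir375. The ratio of reads of Mir375 to those of Mirlet7g, free of any scaling, was 0.498 in replicate 2 and 0.482 in replicate 1.

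By uniquely mapped reads, other miRNAs known from neuroendocrine and islet cells were present at much lower levels. The list held 8 genes, all detected, and Mir375 gave 89.5% of its reads in replicate 2 and 89.1% in replicate 1. Mir7b, an islet and hypothalamic miRNA, came next with 4213 CPM in replicate 2 against 3362 CPM in replicate 1. Mir375 had 9.74 reads for each read of Mir7b in replicate 2 and 10.8 in replicate 1. The related hairpins Mir7-1 and Mir7-2 had 309 and 69.9 CPM in replicate 2, and 389 and 87.7 CPM in replicate 1. Both share a run with another hairpin, so their counts are uncertain. Reads that fit more than 1 place were left out, so these counts may be too low. The share of Mir375 in the list may then be too high. No other member of the list kept a proportion to Mir375 as even between the libraries as Mir7b.

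The remaining members lay higher in replicate 1. Mir182, Mir183 and Mir96 form 1 cluster known from sensory organs and also from islets. Mir182 had 109 CPM in replicate 2 against 324 CPM in replicate 1, and Mir183 had 105 CPM in replicate 2 against 219 CPM in replicate 1. Mir96 had 3.77 CPM in replicate 2 against 12.7 CPM in replicate 1. Mir184, known from the lens and the islets, had 22.2 CPM in replicate 2 against 53.2 CPM in replicate 1. These 4 genes were called higher in replicate 1, with log2 ratios from -1.62 to -0.93. Of the 8 genes of the list, 2 were called higher in replicate 2 (Mir375 and Mir7b) and 5 in replicate 1, beside 35.5% and 32.6% of all 377 genes called in these directions. The list median was -0.57, beside 0.04 over all detected genes. The call of Mir7-1 in replicate 1 (log2 ratio -0.20) has a ratio of 0.02 under upper-quartile scaling. With edgeR's exact test none of the 8 was called, beside 1.86% of all 377 genes, so this does not set the list apart.

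Uniquely mapped reads of the neuronal list were few beside those of Mir375. Its 18 genes summed to 1166 CPM in replicate 2 against 1288 CPM in replicate 1, so that Mir375 had 35.2 times their reads in replicate 2 and 28.3 times in replicate 1. Mir137, a miRNA of neurons, led with 695 CPM in replicate 2 against 730 CPM in replicate 1, with no call. Of the 11 detected members, 2 were called higher in replicate 2 and 4 in replicate 1 (median 0.08), beside 35.5% and 32.6% of all genes. None of the 11 was called by edgeR's exact test, beside 1.86% of all genes. Of its 18 hairpins, 16 have a run in common with others, among them the copies of Mir9 and Mir124a, whose 0 to 6 reads say nothing of the mature miRNA.

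The summed epithelial, gut and kidney, muscle and liver lists differed between the libraries by more than Mir375 did, unlike the neuronal list. The pancreas, whose islets hold much miR-375, lies near the gland, and its exocrine tissue is marked by Mir216a, Mir216b and Mir217. Mir216a and Mir216b had 0 reads in both libraries, which for each of them allows at most a share of 6.66e-05% in replicate 2 against 6.05e-05% in replicate 1, and Mir217 had 12 reads in replicate 2 and 8 in replicate 1. The epithelial list, mainly the miR-200 family, summed to 1165 CPM in replicate 2 against 4709 CPM in replicate 1, and 6 of its 7 genes were called higher in replicate 1 (median -3.85), beside 32.6% of all genes. The other, Mir203 of keratinocytes, was called higher in replicate 2, with 967 CPM there against 446 CPM in replicate 1. With edgeR's exact test Mir200a, Mir200b, Mir200c, Mir141 and Mir429 were called (adjusted p 0.0014 to 0.037), beside 1.86% of all genes. Mir203 and Mir205 were not called by it. Mir200b, the highest of the list in replicate 1 and by mean, had 54.8 CPM in replicate 2 against 1822 CPM in replicate 1, so Mir375 had 748 times its reads in replicate 2 and 20.0 times in replicate 1. The gut and kidney list summed to 893 CPM in replicate 2 against 2256 CPM in replicate 1, with its 4 detected genes called higher in replicate 1, again beside 32.6% of all genes. Mir196b, which lies in a Hox cluster, gave 83.5% of its reads in replicate 2 and 83.1% in replicate 1. No detected gene of the gut and kidney list was called by edgeR's exact test, beside 1.86% of all genes.

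The muscle and liver lists went the other way. Striated muscle miRNAs summed to 8685 CPM in replicate 2 against 1249 CPM in replicate 1, nearly all from Mir206, a miRNA of skeletal muscle, and the 3 detected genes were called higher in replicate 2, beside 35.5% of all genes. Mir122, the liver miRNA, had 2638 CPM in replicate 2 against 1449 CPM in replicate 1. By edgeR's exact test no detected gene of the muscle and liver lists was called, beside 1.86% of all genes. The adjusted p of that test was 0.0948 for Mir206 and 0.0791 for Mir499. The exocrine list was at or near 0 in both libraries. The epithelial, gut, muscle and liver lists changed by 1.82 to 6.95 times between libraries in CPM, against 1.13 times for Mir375. For the neuronal list the change was 1.10 times. The part of the tissues behind these lists in the level of Mir375 was not tested.

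**Figure D3:**
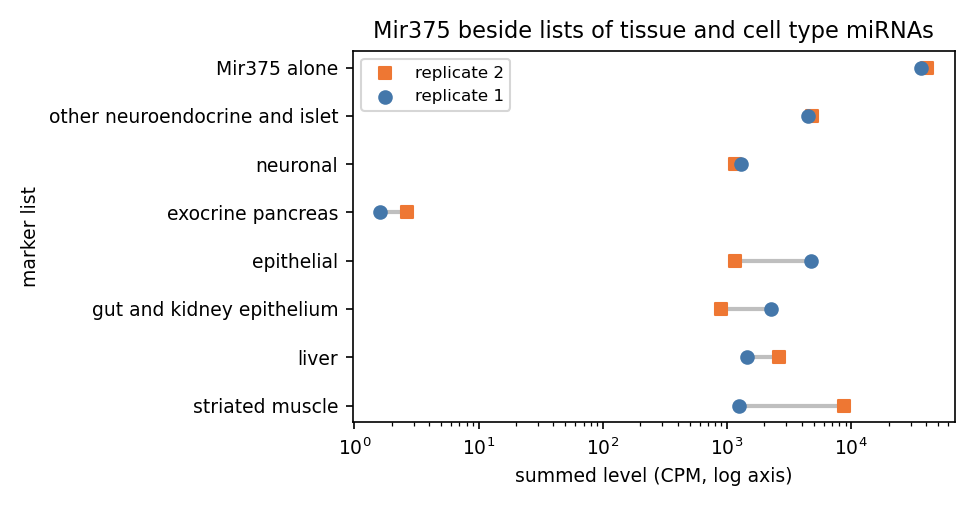
Level of Mir375 and summed level of 7 marker lists in CPM on a log axis, with squares for replicate 2 and circles for replicate 1. Mir375, the sum of the other neuroendocrine genes (4833 and 4448 CPM) and the neuronal list each lie close together between libraries. That neuroendocrine sum of uniquely mapped reads is mostly Mir7b (4213 and 3362 CPM). Of its 7 genes, 5 were called higher in replicate 1, beside 32.6% of all genes. The epithelial, gut and kidney, and striated muscle lists are spread apart, and exocrine pancreas stays under 3 CPM.

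**Figure D4:**
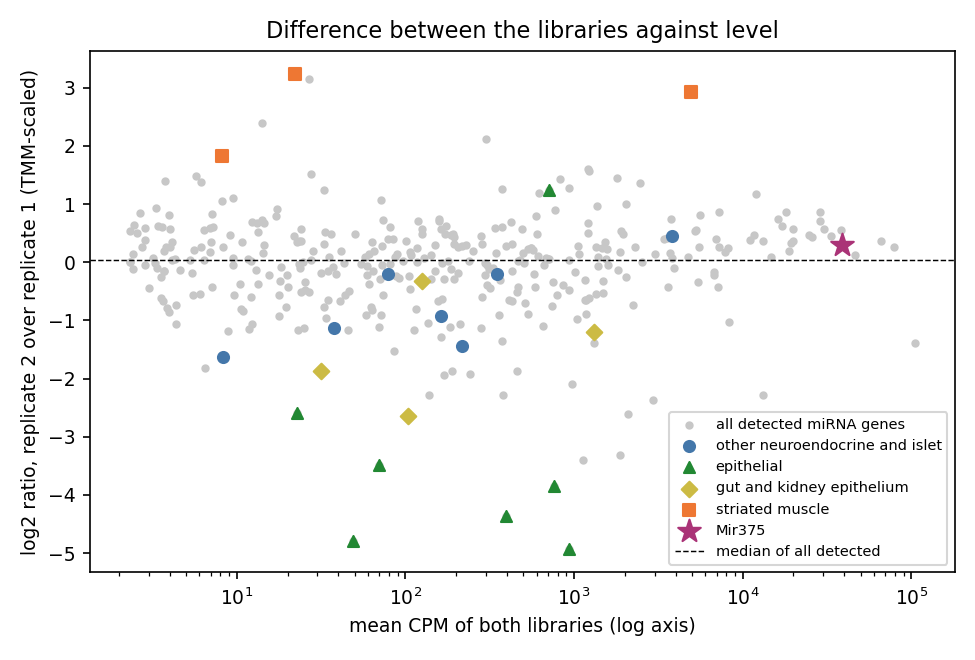
Log2 ratio of replicate 2 over replicate 1 (TMM-scaled) against mean CPM on a log axis, with 1 point for each of the 377 detected genes. Mir375 (star, 0.30) sits at the abundant end near the other abundant genes, while the miR-200 family lies between -4.92 and -3.49 and the muscle genes between 1.83 and 3.23.

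Along the chromosome, Mir375 stood without a detected neighbour close by. Within 1 Mb to either side the annotation holds 4 other miRNA genes, and 3 of these (Mir1928, Gm25035 and Gm27943) had 0 reads in each library. All 3 have runs in common with other hairpins, so 0 sets no limit to their level. The 4th, Mir26b in the phosphatase gene Ctdsp1, lies 506264 bases away and had 28607 CPM in replicate 2 against 23063 CPM in replicate 1. Mir375 had 1.43 reads for each read of Mir26b in replicate 2 and 1.58 in replicate 1. By TMM, Mir26b was called higher in replicate 2 (log2 ratio 0.44), in the same direction as Mir375.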

How the data were processed

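MicroRNA sequencing of adrenal tissue gave 2 libraries of 1 group, grouped by the labels. The authors deposited whole-number read counts per miRNA gene, not normalized. Per the file headers, these counts rest on mm10 with the GENCODE M21 annotation; for the aligner and counter, a name is not given in the sources used here. The tables have 3 count columns with no header, read from the values as either strand, annotated strand and opposite strand; the second was used. The 4 leading rows name no gene and entered no test and, but for the alternative scaled by all reads, no library size. Replicate 2 had 11288855 reads, with 39.9% in miRNA genes, 26.1% unmapped, 27.8% at several places and 6.24% outside miRNA genes. Replicate 1 had 11704395 reads, with 42.4%, 25.8%, 25.9% and 5.96% in the same classes. All 2202 identifiers were found in the annotation.

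CPM values use the total of miRNA gene reads. The difference between the libraries was tested with an exact two-sided binomial test against TMM-scaled library sizes (edgeR 4.0.16), over genes with at least 10 reads in both, adjusted by Benjamini-Hochberg, with calls at an adjusted p under 0.05. The test compares these libraries and covers counting error alone, as do the Wilson intervals and the floor of 3 reads. The binomial test was checked on simulated counts that held counting error alone. That check cannot show how the test does with the spread of this pair. Reads carry no molecular identifiers. The exact test of edgeR, run with 1 library per group, takes its dispersion from the same pair. DESeq2 1.42.0 gave alternative size factors, and RNAfold 2.7.2 folded the hairpin. Named genes were the 5 next to Mir375 in level on each side (4 exist above it), the 5 of the 50 most abundant with the nearest ratio, marker list members and miRNA genes within 1 Mb. Members and lists were chosen with earlier results of these data known. Searches that need the sequence of miR-375-3p, for its seed in other miRNAs and for target sites, were not made here.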

Additional observations from a re-analysis of the deposited data

How the results depend on the processing

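The mean level of Mir375 was 38702 CPM. It was 45943 CPM by reads on either strand, 57299 CPM without genes whose hairpins share runs, 43273 CPM without Mir126a in the total and 15898 CPM of all reads of the library, and it stayed within 1 SD by TMM-scaled sizes (38848 CPM). Its mean rank of 5 became 4 by reads on either strand and 3 without genes whose hairpins share runs. Leaving out such genes removes other genes alone, so it can only move Mir375 up. Leaving out 1 replicate at a time, the level ran from 36380 to 41025 CPM and the rank from 5 to 6, with no test possible on 1 library. On either strand, reads of overlapping hairpins such as Mir126a and Mir126b count for no gene, which changes the total.

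The log2 ratio kept its sign under every alternative run. It lost its call under edgeR's exact test (0.30) and under totals without Mir126a (0.0084); elsewhere it ran from 0.09 to 0.52. The number of genes called was 257 (134 higher in replicate 2, 123 in replicate 1) and 7 by edgeR's exact test (24 at an unadjusted p under 0.05). It ran from 195 to 267 under the others. Calls split 177 to 90 under upper-quartile scaling, 112 to 144 under total miRNA reads, 87 to 167 under all reads and 77 to 189 without Mir126a. These scalings moved the median log2 ratio of all genes, 0.04 by TMM, to between -0.25 and 0.26. No paired analysis was possible because the series holds 1 group. Depth does not limit the level of Mir375, whose counting interval is far narrower than the spread between libraries.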
